A study of Homo sapiens with 6 samples.

Results

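The genes described here are the transcription factors of the MYC, MAX and MXD network, 10 genes chosen by name out of 18132 genes on the array: MYC, MYCL, MYCN, MAX, MXD1, MXD3, MXD4, MXI1, MNT and MLX. They were followed in TE-1 cells, an established human line from oesophageal squamous cell carcinoma, on Affymetrix arrays. The 3 EIF3C knockdown samples came from a clone in which EIF3C, which encodes a subunit of the translation initiation factor eIF3, was stably knocked down, and the 3 control samples came from the parental TE-1 cells. Both groups were grown in the same medium with foetal serum. The knockdown samples share 1 clone and the controls are parental cells, so the knockdown and the selection of that clone cannot be told apart. The labels call the replicates biological without saying whether they were separate cultures, so the p-values reflect only the variation among these arrays, part of which may be technical.

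MYC proteins are basic helix-loop-helix leucine zipper factors that bind DNA only as a dimer with MAX, typically at the E-box CACGTG, and raise transcription of genes for growth, ribosome production and metabolism. MXD1, MXI1, MXD3, MXD4 and MNT compete for MAX at the same sites and bring in the SIN3 and histone deacetylase corepressor. MLX is a relative of MAX that pairs with the glucose-responsive factors MLXIP and MLXIPL, and also with some MXD proteins and MNT. In squamous tumours, as in many others, MYC is known as a driver of proliferation.

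Since these factors read the E-box, the stretch before the start of each network gene was searched for CACGTG, which reads the same on both strands. The search used RefSeq windows of GRCh38.p14 from 250 bases before to 50 bases after each gene's start. Of 12 windows belonging to 9 of the network genes, 3 held the motif, those of MLX, MNT and MXD4. MYC is not among these 9 genes. Over all 35116 windows in the table, 7.26% held it. The 250 bases before the start of these 3 genes are shown because they carry the network's own binding motif, with the E-box in capitals and the strand of the gene read 5′ to 3′.
MLX, chr17:42566850-42567099, plus strand: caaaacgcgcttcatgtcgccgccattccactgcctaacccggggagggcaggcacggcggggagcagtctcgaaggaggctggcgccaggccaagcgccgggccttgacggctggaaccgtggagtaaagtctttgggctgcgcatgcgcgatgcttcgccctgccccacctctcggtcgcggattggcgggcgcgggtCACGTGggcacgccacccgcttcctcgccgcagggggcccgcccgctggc
MNT, chr17:2401061-2401310, minus strand: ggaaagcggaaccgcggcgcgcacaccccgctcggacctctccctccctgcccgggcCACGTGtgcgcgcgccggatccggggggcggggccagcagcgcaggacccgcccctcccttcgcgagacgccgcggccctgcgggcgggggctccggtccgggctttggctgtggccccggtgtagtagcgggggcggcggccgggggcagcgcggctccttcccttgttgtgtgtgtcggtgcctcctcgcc
MXD4, chr4:2262110-2262359, minus strand: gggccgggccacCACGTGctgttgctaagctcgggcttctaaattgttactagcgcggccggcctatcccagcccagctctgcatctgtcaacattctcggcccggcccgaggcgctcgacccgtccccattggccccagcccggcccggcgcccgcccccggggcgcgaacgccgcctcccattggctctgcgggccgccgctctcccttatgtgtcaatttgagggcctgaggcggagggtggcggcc
The motif begins 50 bases before the start of MLX, 193 bases before that of MNT and 238 bases before that of MXD4. The letters show only that the motif is present, and binding was not measured.

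The labels and the arrays matched in the targeted gene. On the 3 bright probe sets shared by EIF3C and its near copy EIF3CL, 21.5% to 22.6% of the control signal remained in the knockdown samples. On the dim ones they share, 51.1% and 66.9% remained. The epithelial markers CDH1 and EPCAM had mean log2 signals of 11.44 and 12.1 in knockdown and 11.21 and 11.89 in control cells. The squamous markers KRT5, KRT14 and SOX2 were dim in both groups, at 5.52 to 6.09 in knockdown and 5.77 to 5.91 in control cells. The squamous markers KRT6A, KRT17 and TP63 were also planned, but had no probe set of their own and were not read. Of the markers of other cell types, 2 of 6 for fibroblasts, 2 of 4 for leukocytes and 3 of 4 for endothelium had a mean above the lowest one tested, and none exceeded 6.34 in knockdown or 6.21 in control cells. In RNA from whole cultures, a change in every cell and a change in the share of cells that express a gene cannot be told apart. Array medians lay between 6.09 and 6.11.

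Of the 10 network genes, all of which were bright enough to be tested, 5 were higher and 4 lower in knockdown cells at an adjusted p of 0.05 (limma with Benjamini-Hochberg over 13599 genes), and MYCN did not pass. MYC, MAX, MLX, MXD1 and MXI1 rose, and MYCL, MXD3, MXD4 and MNT fell. Among all genes tested 66.5% passed, 32.4% higher and 34.1% lower, so 9 of 10 is to be read against a background in which most genes passed. The median absolute log2 difference was 0.53 over the 10 genes and 0.23 over all genes tested. At least 2-fold changes were found for MYC, MLX and MYCL, and 4.82% of all genes tested were called with a change of that size. In 9 of the 10 genes the groups did not overlap, as in 70.3% of all genes tested and 55.4% of all human probe sets.

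**Figure D1:**
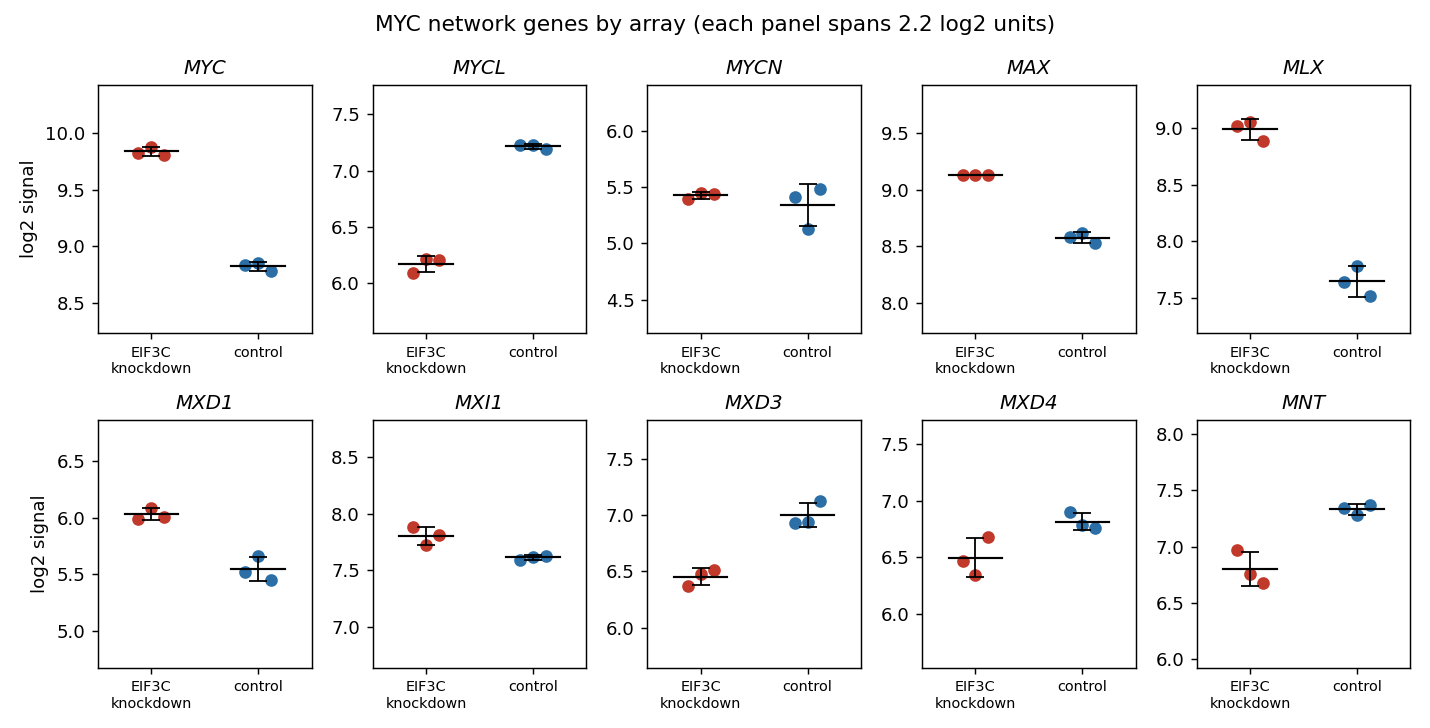
Log2 signal of each network gene (vertical axis) in the 3 EIF3C knockdown arrays (red, left) and the 3 control arrays (blue, right), with the mean and SD of each group in black and the same span in each panel. The red points lie above the blue ones for MYC, MAX, MLX, MXD1 and MXI1 and below them for MYCL, MXD3, MXD4 and MNT, while those of MYCN overlap.

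MYC, the widely expressed founding member of the network, had log2 signals of 9.83, 9.88 and 9.81 in the 3 knockdown samples, against 8.83, 8.85 and 8.78 in the 3 controls. Each knockdown sample lay far above each control, with little spread within either group. The mean was 9.84 ± 0.038 in knockdown and 8.82 ± 0.036 in control (SD, n = 3 each), a log2 difference of 1.02 (SE 0.034), or 203% of the control signal (adjusted p = 1.19e-13). By size of change it ranked 626 among the 13599 genes. MYC has 1 probe set of its own on the array, so no further probe set could check it.

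MYCL, the paralogue first found in lung cancer, went the opposite way. Its log2 signals were 6.09, 6.22 and 6.21 in knockdown, against 7.23, 7.23 and 7.19 in control. No knockdown sample came within 0.9 log2 units of a control. The difference was -1.04 (SE 0.062), which left 48.5% of the control signal (adjusted p = 1.34e-10). Of its 4 probe sets, 3 were called lower. The other one bright enough to be kept stood at -0.08 and was not called, and with the mean of all its probe sets the fall of MYCL was 0.45.

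MYCN, the paralogue of neural tumours, was dim and did not pass. Its log2 signals were 5.39, 5.45 and 5.44 in knockdown and 5.41, 5.13 and 5.48 in control. The groups overlapped, and control replicate 2 was the low sample. The difference was 0.09 with a 95% interval of -0.11 to 0.28 (adjusted p = 0.437), and it turned to -0.019 without control replicate 2. None of its 4 probe sets was called in either direction.

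MAX, the obligate partner of MYC and of the MXD repressors, rose. Its log2 signals were 9.13 in each of the 3 knockdown samples, against 8.58, 8.62 and 8.53 in the controls. The knockdown samples were nearly identical to each other and all above the controls. The difference was 0.55 (SE 0.036), a 1.47-fold change (adjusted p = 5.25e-10). MAX is the network gene with the most probe sets: of 12, 9 were called higher and 0 lower, against 24.1% of all human probe sets called higher.

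The called probe sets of MAX ran from 0.35 to 0.82. The one at 0.82 had log2 signals of 8.75, 8.77 and 8.80 in knockdown and 7.96, 7.97 and 7.92 in control. Of the 3 that were not called, 2 had means below the lowest mean kept for testing, 4.635, and the other, at 4.68 in knockdown and 4.62 in control, lay just above it. The rise of MAX was thus seen on each of its probe sets with a mean above 5, and on 1 of them, at 0.35, the groups overlapped.

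MLX showed the largest difference among the 10 genes. Its log2 signals were 9.02, 9.06 and 8.89 in knockdown, against 7.64, 7.78 and 7.51 in control. The lowest knockdown sample stood more than 1 log2 unit above the highest control. The difference was 1.35 (SE 0.06), or 2.55-fold (adjusted p = 3.65e-12), rank 236 of the 13599 genes. All 6 of its probe sets were called higher, from 0.39 to 1.35. The further ones stood at 0.85, 1.25, 1.07, 1.21 and 0.39.

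**Figure D2:**
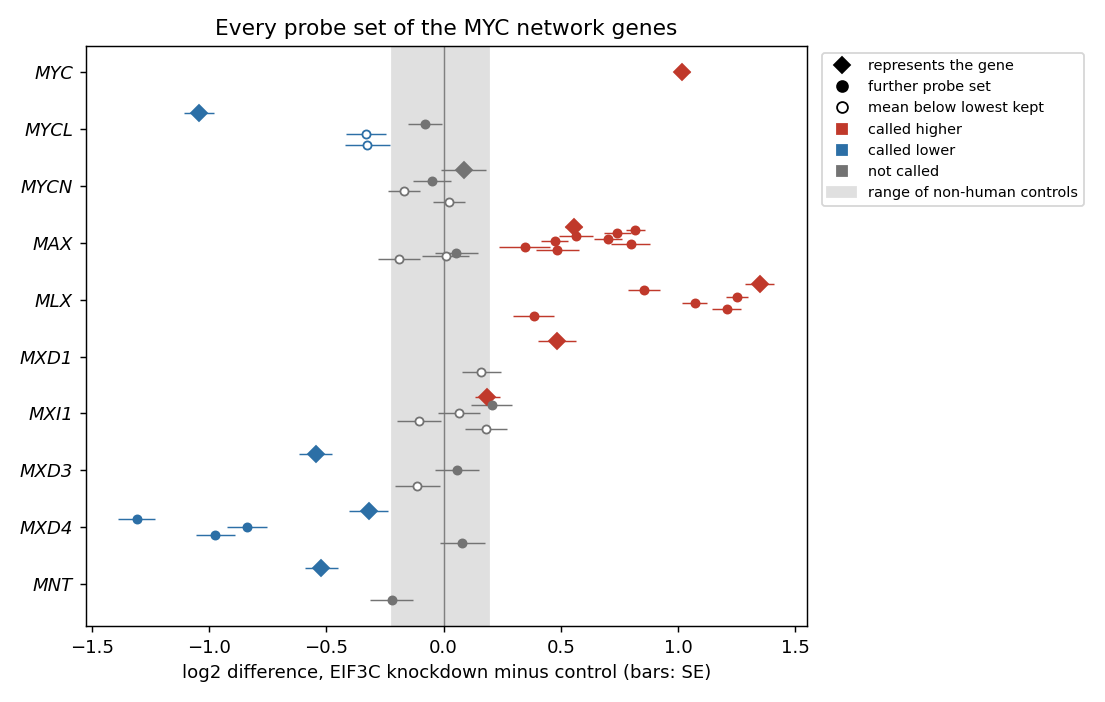
Log2 difference between EIF3C knockdown and control (horizontal axis, bars SE) for each of the 44 probe sets of the network genes, with diamonds for those that represent a gene, open circles for those with a mean below 4.635, and red, blue and grey for called higher, called lower and not called. The grey band is the range of 85 non-human control probe sets, -0.22 to 0.20. All probe sets of MLX and 9 of 12 of MAX lie to the right of the band, and 4 of 5 of MXD4 to its left.

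The MAX-binding repressors split. MXD1, which is known to appear as cells leave the cycle and differentiate, had log2 signals of 5.99, 6.09 and 6.01 in knockdown and 5.52, 5.66 and 5.45 in control. All 3 knockdown samples were above the controls, by 0.48 on average (SE 0.078, adjusted p = 3.09e-05). A further probe set below the lowest mean kept stood at 0.16 and was not called. The rise of MXD1 thus rests on 1 dim probe set, with means of 6.03 in knockdown and 5.54 in control.

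MXI1, also known as MXD2, changed least among the genes that passed. Its log2 signals were 7.88, 7.72 and 7.81 in knockdown and 7.59, 7.62 and 7.63 in control, which did not overlap. The difference of 0.19 (SE 0.051, adjusted p = 0.00363) lay inside the range of the non-human control probe sets, and a technical source of that size was not tested. Of its 5 probe sets 1 was called, and with the mean of all 5 the difference was 0.11 and did not pass (adjusted p = 0.13).

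MXD3, which in mouse cells is known to be expressed in S phase, fell. It had log2 signals of 6.37, 6.48 and 6.51 in knockdown and 6.93, 6.94 and 7.12 in control. The groups were apart by more than the spread within either. The difference was -0.55 (SE 0.068, adjusted p = 1.86e-06). The other 2 probe sets of MXD3 were not called, at 0.06 and -0.11, and the fall was 0.20 with the mean of all 3. A pair annotated to both MXD3 and RAB24 was not counted, and stood at -0.02 on both.

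MXD4 fell by an amount that differed between its probe sets. On the one with the highest mean, log2 signals were 6.47, 6.34 and 6.68 in knockdown and 6.90, 6.79 and 6.76 in control, and knockdown replicate 3 came close to the controls. That difference was -0.32 (SE 0.08, adjusted p = 0.00193). On another it was -1.31, with signals of 5.69, 5.75 and 5.67 in knockdown against 6.97, 7.17 and 6.90 in control. Further ones gave -0.84 and -0.97, and the fifth 0.08 without a call. With the mean of all 5, MXD4 fell by 0.67 (adjusted p = 2.78e-08).

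MNT, a broadly expressed antagonist of MYC, had log2 signals of 6.97, 6.76 and 6.68 in knockdown and 7.34, 7.28 and 7.37 in control. Each knockdown sample was below each control. The difference was -0.52 (SE 0.069), which left 69.7% of the control signal (adjusted p = 3.76e-06). A further probe set stood at -0.22 and missed the threshold (adjusted p = 0.0601 over all human probe sets), with overlapping groups. Over the 10 genes, 44 probe sets gave 18 calls higher, 9 lower and 17 neither, and no gene had calls in both directions. Among all human probe sets 48.2% were called.

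The partners that complete the network fell or did not pass. MLXIP, or MondoA, the glucose-sensing partner of MLX, had log2 signals of 8.11, 8.18 and 8.20 in knockdown and 8.95, 8.91 and 8.82 in control. It fell by 0.73 (SE 0.044, adjusted p = 1.69e-10), in the opposite direction to MLX, and 2 of its 4 probe sets were called, both lower. MGA, a large MAX partner of repressive complexes, fell by 0.16 (adjusted p = 0.00238). Non-human controls differed by up to 0.22. MLXIPL, or ChREBP, differed by 0.01 and did not pass (adjusted p = 0.842).

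Genes that are targets of MLX with these partners were mixed: of 11 tested, 3 rose and 6 fell, with a median log2 difference of -0.25 against -0.04 over all genes tested. The share higher was 27.3%, against 32.4% of all genes tested, and the share called 81.8%, against 66.5%. Some of these genes were dim. With the lowest 50% of genes by mean left out, 8 targets were tested, of which 3 rose and 4 fell. Of all 9066 genes left, 3703 were higher and 3581 lower. TXNIP, the inhibitor of glucose uptake that is the best known MLXIP target, fell by 0.94, with signals of 11.13, 11.19 and 11.17 in knockdown against 12.11, 12.10 and 12.10 in control (adjusted p = 8.97e-16), and all 5 of its probe sets were lower. Its paralogue ARRDC4 is likewise an MLXIP target and fell by 0.25 (adjusted p = 5.83e-05). TKFC, a kinase of fructose metabolism, fell by 0.80 and FASN, the fatty acid synthase, by 0.37. PFKFB3, which makes the activator of phosphofructokinase, rose by 1.30 on the probe set that represents it, and 2 of its 4 probe sets were called. The arrestin-domain gene ARRDC3 rose by 0.40 and the TGF-beta-induced repressor KLF10 by 0.26.

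Among genes of the corepressor recruited by MXD proteins and MNT, 5 of 9 tested rose and 1 fell, with a median of 0.11. The share called, 66.7%, was that of all genes, 66.5%. With quantile normalization 4 rose and 3 fell, and 2 fell with the replicate block and without knockdown replicate 1 or control replicate 3. SAP30, a subunit that stabilises the SIN3 and histone deacetylase complex, had signals of 7.51, 7.50 and 7.56 in knockdown and 6.56, 6.62 and 6.30 in control. This was a rise of 1.03 (SE 0.073, adjusted p = 1.47e-09). The scaffold SIN3A rose by 0.26. The histone-binding subunit RBBP4 rose by 0.34, although the other of its 2 probe sets was called lower. The deacetylase HDAC1 fell by 0.12 and RBBP7 rose by 0.11, both inside the range of the non-human controls.

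Of 14 cofactors through which MYC acts on chromatin, 6 were higher and 8 lower, with a median of -0.11, where 32.4% of all genes tested were higher and 34.1% lower. With the mean of the probe sets 4 were higher and 6 lower. The falls of ACTL6A, PAF1, HCFC1 and KAT5, at -0.085, -0.137, -0.151 and -0.191, lay inside the range of the non-human controls. SMARCB1, a core SWI/SNF subunit that binds MYC, rose by 0.89 (adjusted p = 1.83e-13). The paired ATPases RUVBL2 and RUVBL1 rose by 0.66 and 0.62 (adjusted p = 3.33e-12 and 1.44e-10), on 3 of 4 and 3 of 3 probe sets. BPTF, a chromatin remodeller subunit, fell by 0.47 on 6 of 6 probe sets, WDR5, which anchors MYC to chromatin, by 0.40, and the acetyltransferase KAT2A by 0.30.

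Regulators of MYC itself also moved both ways, with 11 of 25 higher, 9 lower and a median of 0.01. The share called was 80%, against 66.5% of all genes tested. With the lowest 50% of genes by mean left out, 11 of 23 were higher and 9 lower. Of all 9066 genes left, 3703 were higher and 3581 lower. The rise of FBXO28, at 0.135, lay inside the range of the non-human controls. So did the falls of STUB1 and MYCBP2, at -0.192 and -0.206. PPP2R1A, the scaffold of the phosphatase PP2A that removes a stabilising phosphate from MYC, fell by 1.22 on 5 of 5 probe sets (adjusted p = 2.89e-15). PIM1, a kinase that phosphorylates MYC, fell by 0.70 on 4 of 4. GSK3B, which marks MYC for FBXW7, fell by 0.69, although the other of its 2 probe sets was called higher. The ubiquitin ligases HUWE1 and FBXW7, both of which target MYC, rose by 0.80 and 0.67, FBXW7 on 3 of 3 probe sets and HUWE1 on 1 of 3. USP36, a nucleolar deubiquitinase of MYC, rose by 0.65 on 2 of 5. Both genes that promote and genes that limit MYC stability are thus found in each direction, and the protein was not measured.

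**Figure D3:**
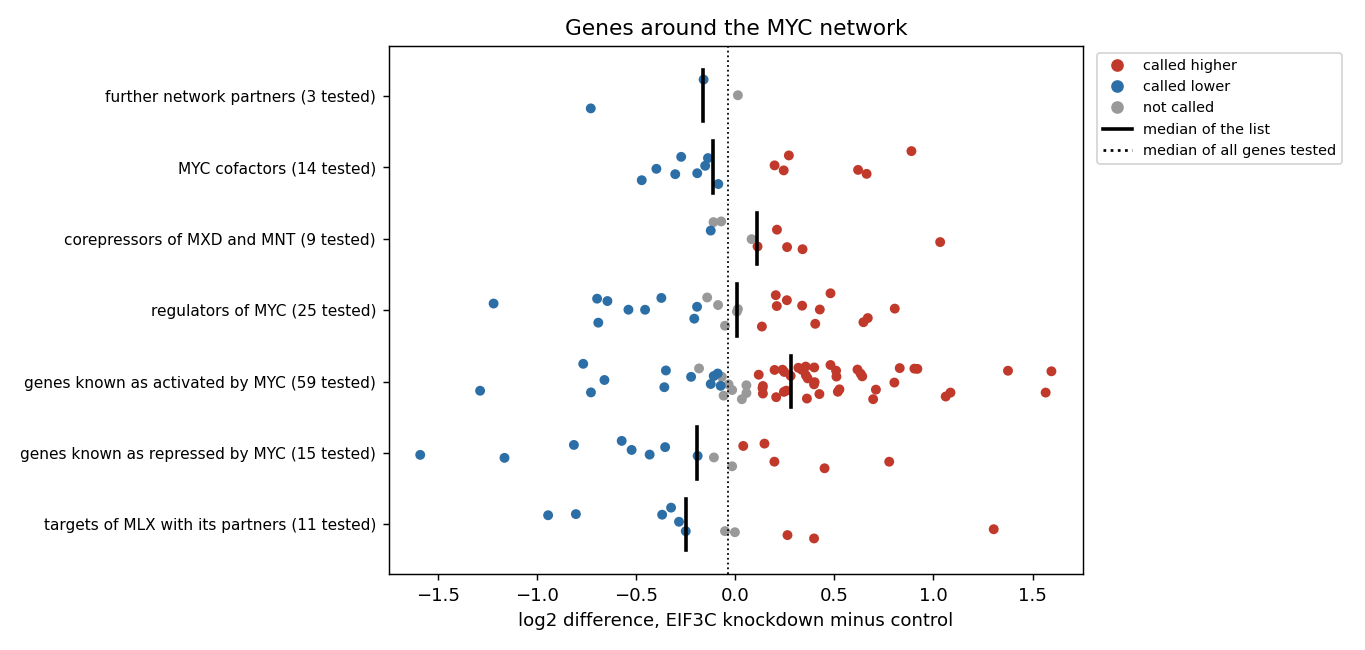
Log2 difference between EIF3C knockdown and control (horizontal axis) for each tested gene in 7 lists around the network, red for called higher, blue for called lower and grey for not called, with black bars for list medians and a dotted line for the median of all genes tested, -0.04. The list of genes known as activated by MYC lies mostly to the right, with a median of 0.28.

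Genes known as activated by MYC rose more often than they fell. Of 59 tested, 40 rose, 11 fell and 8 did not pass, so 67.8% were higher where 32.4% of all genes were. The median was 0.28 against -0.04. With the lowest 50% of genes by mean left out, 40 of 57 rose and 11 fell. Of all 9066 genes left, 3703 were higher and 3581 lower. CCND2, the cyclin D2 gene and a direct MYC target, averaged 8.55 in knockdown and 6.95 in control, a rise of 1.60 (adjusted p = 2.65e-13). DKC1, the pseudouridine synthase of the nucleolus, rose by 1.57 and EIF2S1, the alpha subunit of eIF2, by 1.38. The 3 largest falls were those of UBTF, the RNA polymerase I factor, which fell by 1.29, of SHMT2, the mitochondrial serine hydroxymethyltransferase, which fell by 0.77, and of DNPH1, a nucleotide hydrolase, which fell by 0.73. For UBTF 1 of 4 probe sets was called.

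Arranged by role, a grouping made after the values were seen, the rises were unevenly spread. Ribosome biogenesis and RNA polymerase I genes accounted for 21 of the 40 rises, out of 24 tested, with a median of 0.45. The 21 include RRP9, at 0.14, inside the range of the non-human controls and with overlapping groups. Its only probe set was not called when tested over all human probe sets. The ribosome genes of this list were known to be higher in these data before the list was written and are no independent evidence. Nor are the other genes, since the lists were chosen with earlier results of these data known. Without the ribosome genes 19 of 35 rose and 9 fell, with a median of 0.14. Of all genes tested 32.4% were higher and 34.1% lower. The counts of 19 and 9 include changes inside the range of the non-human controls, such as SLC19A1 at 0.12 and APEX1 at -0.12. Polyamine, nucleotide and one-carbon genes were evenly split, with 5 of 11 higher and 5 lower. The falls of IMPDH2, SHMT1 and MTHFD2, at -0.07, -0.09 and -0.11, lay inside the range of the non-human controls, as did PPAT at 0.14. Tested over all human probe sets, 1 of the 5 of SHMT1 was called higher and 0 lower.

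Within that group ODC1 and SRM, the entry enzyme and the spermidine synthase of polyamine synthesis, rose by 1.06 and 0.83, while CAD, of pyrimidine synthesis, stood at -0.06 and did not pass. These and the following genes were chosen after their values were seen. All 5 mitochondrial and chaperone genes rose, among them TFAM, which packages mitochondrial DNA, by 0.51, where 32.4% of all genes tested were higher. Of the 3 probe sets of PHB1, however, 1 was called higher and 2 lower. HSPE1, at 0.14, lay inside the range of the non-human controls. Of the cell cycle genes, CCND2 rose by 1.60 and the phosphatase gene CDC25A by 0.34, CDK4 stood at 0.06 without a call, and E2F1 and E2F2 fell by 0.36 and 0.35. TERT, the telomerase gene, was at -0.02 and LDHA, lactate dehydrogenase A, at 0.03, and neither passed on the probe set that represents it. Of the 4 probe sets of LDHA, however, 3 were called higher.

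**Figure D4:**
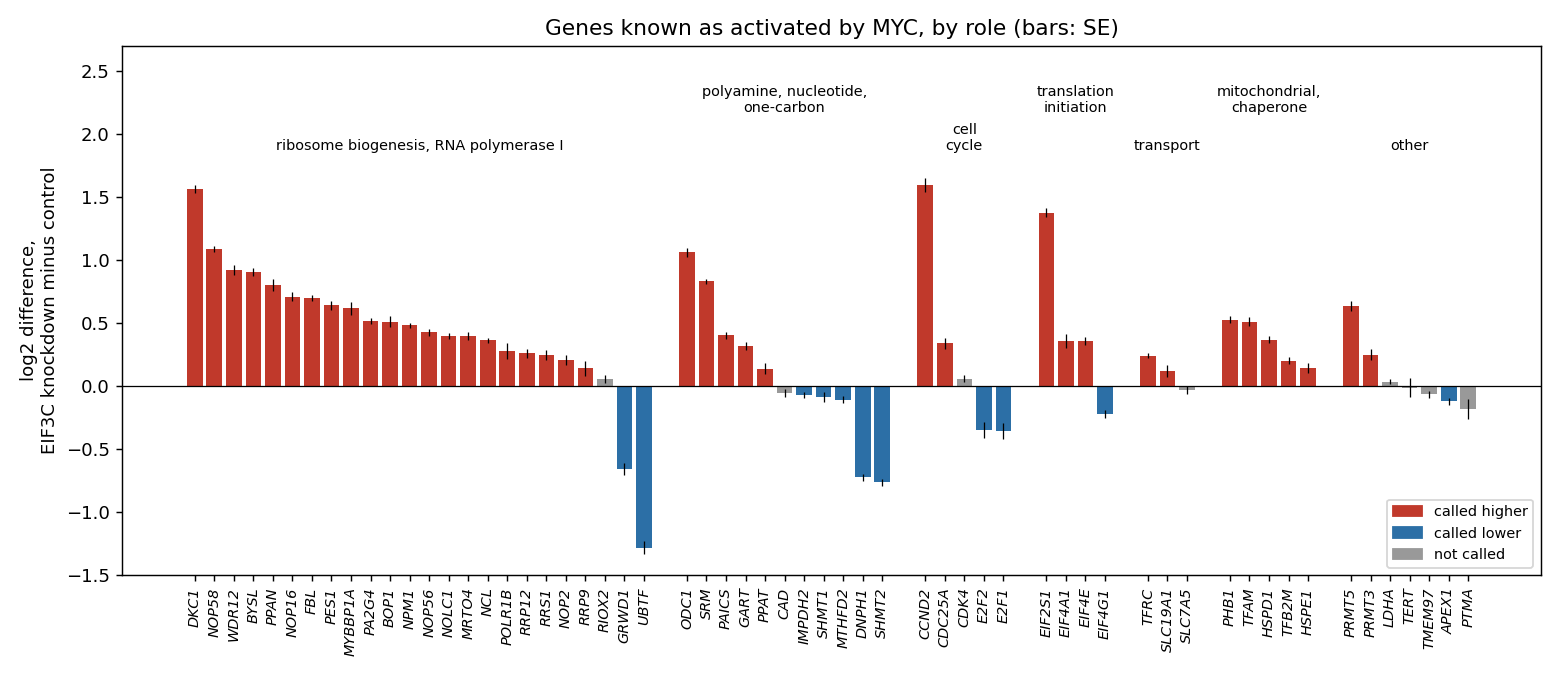
Log2 difference between EIF3C knockdown and control (vertical axis, bars SE) for the 59 tested genes known as activated by MYC, grouped by role, red for called higher, blue for called lower and grey for not called. In the ribosome biogenesis group 21 of 24 genes are red, and in the polyamine, nucleotide and one-carbon group 5 of 11 are red and 5 blue.

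Of 15 tested genes known as repressed by MYC, 5 rose and 8 fell, with a median of -0.19. The share higher was 33.3%, close to the 32.4% of all genes tested, while 34.1% of all genes tested were lower. The share called was 86.7%, against 66.5%. With the lowest 50% of genes by mean left out, 5 of 15 rose and 9 fell. Of all 9066 genes left, 3703 were higher and 3581 lower. The rises of HES1 and ITGB1, at 0.15 and 0.04, and the fall of NDRG2, at -0.19, lay inside the range of the non-human controls. With the mean of the probe sets 2 rose, and 3 rose with quantile normalization, without the intensity trend, and without knockdown replicate 2 or control replicate 3. TIMP2, a metalloproteinase inhibitor, fell by 1.59 (adjusted p = 3.19e-16), although the other of its 2 probe sets was called higher. The integrin gene ITGA6 fell by 1.16 on 3 of 3 probe sets and CLU, or clusterin, by 0.81 on 1 of 2. CDKN1A and CDKN2B, the cyclin-dependent kinase inhibitor genes that MYC represses through ZBTB17, fell by 0.35 and 0.57 (adjusted p = 2.51e-09 and 1.63e-07), while CDKN1B, a further inhibitor gene in the list, stood at -0.01 and did not pass (adjusted p = 0.718). These 3 were named after their values were seen. GADD45A, a growth arrest gene, rose by 0.78, GAS1 by 0.45 and GADD45B by 0.20.

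The E-box shown above was common in the promoters of the activated genes. Of the 50 with a window in the table, 23 held CACGTG, or 46.0%, against 12.1% of 10979 tested genes with a window. The list was drawn up from known MYC targets, so this share describes the list and not the knockdown. Within the list, 16 of the 23 with the motif were higher and 3 lower, and 18 of the 27 without it were higher and 6 lower. Among all genes tested, 36.6% of those with the motif were higher and 35.1% lower, and of those without it 33.2% were higher and 34.3% lower. The median differences were -0.01 with the motif and -0.03 without it.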

How the data were processed

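The values were the log2 signals of the table deposited by the authors, with 49395 probe sets and 6 arrays. MAS5 is named in the submitters' processing notes, with no version. How background was corrected, probes were summarised and logs taken is not given in the sources used here. A log2 scale was read from the range of values, 1.95 to 14.14, and the near-equal array medians were taken to mean that arrays were already scaled. A change shared by all genes cannot be measured after such scaling. Detection calls were not used here, so dim probe sets cannot be called absent, and precision is limited by how many arrays there are.

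Probe sets with exactly 1 gene symbol in the platform annotation were used (44988, of which 44961 matched a RefSeq gene by Entrez ID). Another 1832 carried several symbols and 2473 none. Each gene was represented by its brightest probe set on average, and the lowest 25% of genes by mean were left out, leaving 13599. The 3 knockdown and 3 control arrays were compared in limma 3.58.1 (R 4.3.3) with lmFit and eBayes, an intensity trend and a single group term, with Benjamini-Hochberg adjustment over all genes tested and a threshold of 0.05. Single probe sets were tested over all 49293 human probe sets. The procedure was tested on simulated data with known changes in 200 genes per draw, over 10 draws. Far more genes were called here, so the simulation does not test the procedure under so widespread a change.

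The network genes, the 7 lists and the tests were chosen with earlier results of these data known. In each list, up to 3 genes per direction were named, those with the largest change among called genes without overlap between groups, and further genes are marked in the text. Some were named only as limits, where their change was small or their probe sets differed. In the list of further partners all 3 were named, and ARRDC4 was added among the MLX targets. Of the lists, 1 of 15 cofactors, 2 of 11 corepressors, 2 of 27 regulators, 6 of 65 activated and 2 of 18 repressed genes had no probe set of their own, and another repressed gene was below the filter.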

Additional observations from a re-analysis of the deposited data

How the results depend on the processing

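Of 136 values of network genes under 14 alternatives, 134 kept their direction and their side of the threshold. The exceptions were MXI1, at 0.11 where probe sets of each gene were averaged (adjusted p = 0.13), and MYCN, which was not called in any setting and ranged from -0.019 without control replicate 2 to 0.155 without control replicate 3. MYC ranged from 0.96 to 1.03, MLX from 1.02 to 1.42 and MAX from 0.45 to 0.57. With the lowest 50% of genes left out, MYCN, MXD1 and MXD4 were not tested, and with the mean of its probe sets MYCN was not. Quantile normalization gave 4184 genes higher and 4838 lower, against 4401 and 4636.

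Among 252 counts, 243 stayed within 1.5 times the count given. The others concern small counts. Corepressor genes called lower numbered 3 with quantile normalization and 2 with the replicate block, and 1 to 2 with an array left out, 2 of them without knockdown replicate 1 or control replicate 3. Genes repressed by MYC that were called higher numbered 3 with quantile normalization, 2 with the mean of the probe sets and 3 without the intensity trend, and 3 to 5 with an array left out, 3 of them without knockdown replicate 2 or control replicate 3. The causes were not tested.

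The replicate numbers are not stated to mark a shared culture. Deviations from the group means correlated at 0.08, 0.13 and 0.23 between samples of the same number, and 5 of 6 samples correlated best with their own number, a hint from the data only. With the replicate block 4491 genes were higher and 4816 lower, and it changed no call of a network gene.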
